A study of Mus musculus with 18 samples.

Results

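The genes described here encode the machinery that carries a signal from the T cell antigen receptor into the cell. The set was a fixed list of 38 gene symbols, and each gene was represented by the probe set with the highest mean over the 18 arrays among the probe sets annotated with that symbol alone. A probe set for 37 of the 38 was found among the 18193 genes with such a probe set. The kinase gene Lck had no probe set with a single symbol and was not analysed here. Each of the 37 genes passed a filter on dim signals, a mean intensity above 65.9 in at least 1 group, as did 12821 genes in all. The values used are array intensities deposited by the authors, and differences are given as log2 ratios.

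RNA came from CD4+ T cells sorted from 3 mouse tissues on Affymetrix M430v2 arrays, in 6 groups of 3 arrays. In each tissue CD25+ cells, here called Treg, were compared with CD25- cells, here called Tconv, and both were gated as negative for B220, CD11b and CD8a. Lymph node cells came from the cervical, inguinal and mesenteric nodes of C57BL/6 mice aged 32 to 36 weeks, in pools of 3 to 6 mice. Thymus cells came from BDC2.5/NOD mice aged 4 to 6 weeks, also in pools of 3 to 6, after depletion of CD8a+ cells; these mice carry a transgenic T cell receptor on the NOD background. Fat cells came from the epididymal fat of male C57BL/6 mice aged 25 to 35 weeks, in pools of 8 to 10, and their gate also required TCRb. Sex is stated for the fat mice alone, and all RNA was amplified in 2 rounds. Errors are the spread between such pools, not between single mice. Thymus differed from lymph node in tissue, strain, age and receptor repertoire, which cannot be told apart. Fat differed from lymph node in tissue, gate and pool size, and partly in age, which cannot be told apart either.

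The T cell receptor itself has no enzymatic activity. Its CD3 and zeta chains (Cd3d, Cd3e, Cd3g, Cd247) are phosphorylated by Src family kinases that the coreceptor CD4 brings close, and the kinase Zap70 then binds them and phosphorylates the adaptors Lat and Lcp2. On this scaffold phospholipase C gamma (Plcg1) and exchange factors start the calcium and NFAT branch, the protein kinase C theta branch to NF-kB, and the Ras branch, while Csk, Pag1 and several phosphatases hold the pathway back. Regulatory T cells depend on receptor signals for their development and function, and those of visceral fat are known as a tissue population with a restricted receptor repertoire.

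Replicate arrays of a group correlated with each other at 0.974 to 0.991. The median intensity was 76.9 to 82.2 in the 6 fat arrays and 57.9 to 63.0 in the 12 others, so fat was compared with lymph node after quantile normalization of all 18 arrays. The 5 Treg marker genes on the list used as a check of the sort (Foxp3, Il2ra, Ctla4, Ikzf2, Tnfrsf18) were higher in Treg in all 3 tissues. Il2ra encodes CD25, on which the cells were sorted, so its level is not independent of the gate. Markers of other cell types moved with tissue. The summed intensity of 7 stromal and endothelial markers was 266 to 321 in lymph node and thymus arrays, where none of their group means reached the filter level, against 2375 to 6997 in fat Treg and 2530 to 4559 in fat Tconv. The sum of 9 macrophage and monocyte markers was 537 to 899 in lymph node and thymus arrays, against 1230 to 3359 in fat Treg and 956 to 2419 in fat Tconv. The sum of 6 NK and cytotoxic cell markers was 5315 to 6298 in fat Tconv and 908 to 1101 in fat Treg; most of the fat Tconv sum was Nkg7 (mean intensity 5000.15), while Klrd1 was at 252 in fat Tconv and 403 in lymph node Tconv and Ncr1 was under the filter level in every group mean. The same sum was 1695 to 7178 in thymus Treg, mostly Gzma, and 1137 to 1846 in thymus Tconv. The sum of 6 B cell markers was 965 to 1377 in lymph node Treg and 692 to 788 in lymph node Tconv (2 of 4 tested called higher in Treg). Between fat and lymph node Treg, 3 of the 4 were called lower in fat and 1 higher. The part of these cells or transcripts in the results below was not tested. In such sorted bulk samples, fewer cells of a kind and less RNA per cell cannot be told apart.

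Within each tissue, Treg were compared with Tconv to ask which parts of the receptor machinery differ between the cell types. Differences between the groups ran mostly toward lower values in Treg. In the fit without a block for the replicate number, none of the 37 genes was called higher in Treg in any of the 3 tissues. With that block, given below with the shares of all genes, Ppp3ca was called higher in lymph node and Cd2, Grb2, Bcl10 and Ppp3ca in fat. Calls were made where the limma p, adjusted over all 12821 genes by Benjamini-Hochberg, was under 0.05. In fat, 12 of 37 genes (32.4%) were lower in Treg, against 5.19% of all genes called lower and 6.32% called higher. In thymus 4 of 37 (10.8%) were lower, against 1.77% of all genes lower and 3.21% higher, and in lymph node 2 of 37 (5.41%) were lower, against 1.11% lower and 3.21% higher. The median difference of the 37 genes was -0.25 in fat, -0.31 in thymus and -0.11 in lymph node, beside medians of all genes of 0.01, -0.02 and -0.02. All 3 Treg arrays lay below all 3 Tconv arrays in 17 of the 37 genes in fat, 13 in thymus and 7 in lymph node, against 13%, 10.3% and 6.63% of all genes. They lay above in 3, 0 and 1, against 12.2%, 9.02% and 9.91%.

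Themis and Pag1 were lower in Treg in all 3 tissues, and Lat and Prkcq in thymus and fat. In all, 41 of the 12821 genes were called lower in all 3 tissues. Differences were below 0 in all 3 tissues in 20 of the 37 genes, called or not, and above 0 in all 3 in Cd5, Ppp3ca and Ubash3a. None of those named was called without the block. Per tissue, 23 of the 37 were below 0 in lymph node, 31 in thymus and 30 in fat, against 54.8%, 54.3% and 48.9% of all genes. The share of all genes below 0 in all 3 tissues was not counted. Treg and Tconv arrays with the same replicate number in a tissue varied together. With the replicate number as a block, the lower calls came to 3 in lymph node (adding Cd4), 12 in thymus (adding Cd3e, Cd247, Cd4, Fyn, Txk, Lcp2, Sla2 and Ptpn6) and 14 in fat (adding Nck1 and Nfatc3). The share of all genes called lower with the block was 2.42%, 5.41% and 10.5%. On the higher side the block gave Ppp3ca in lymph node, no gene in thymus, and Cd2, Grb2, Bcl10 and Ppp3ca in fat, where 5.6%, 6.5% and 10.2% of all genes were called higher.

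**Figure D1:**
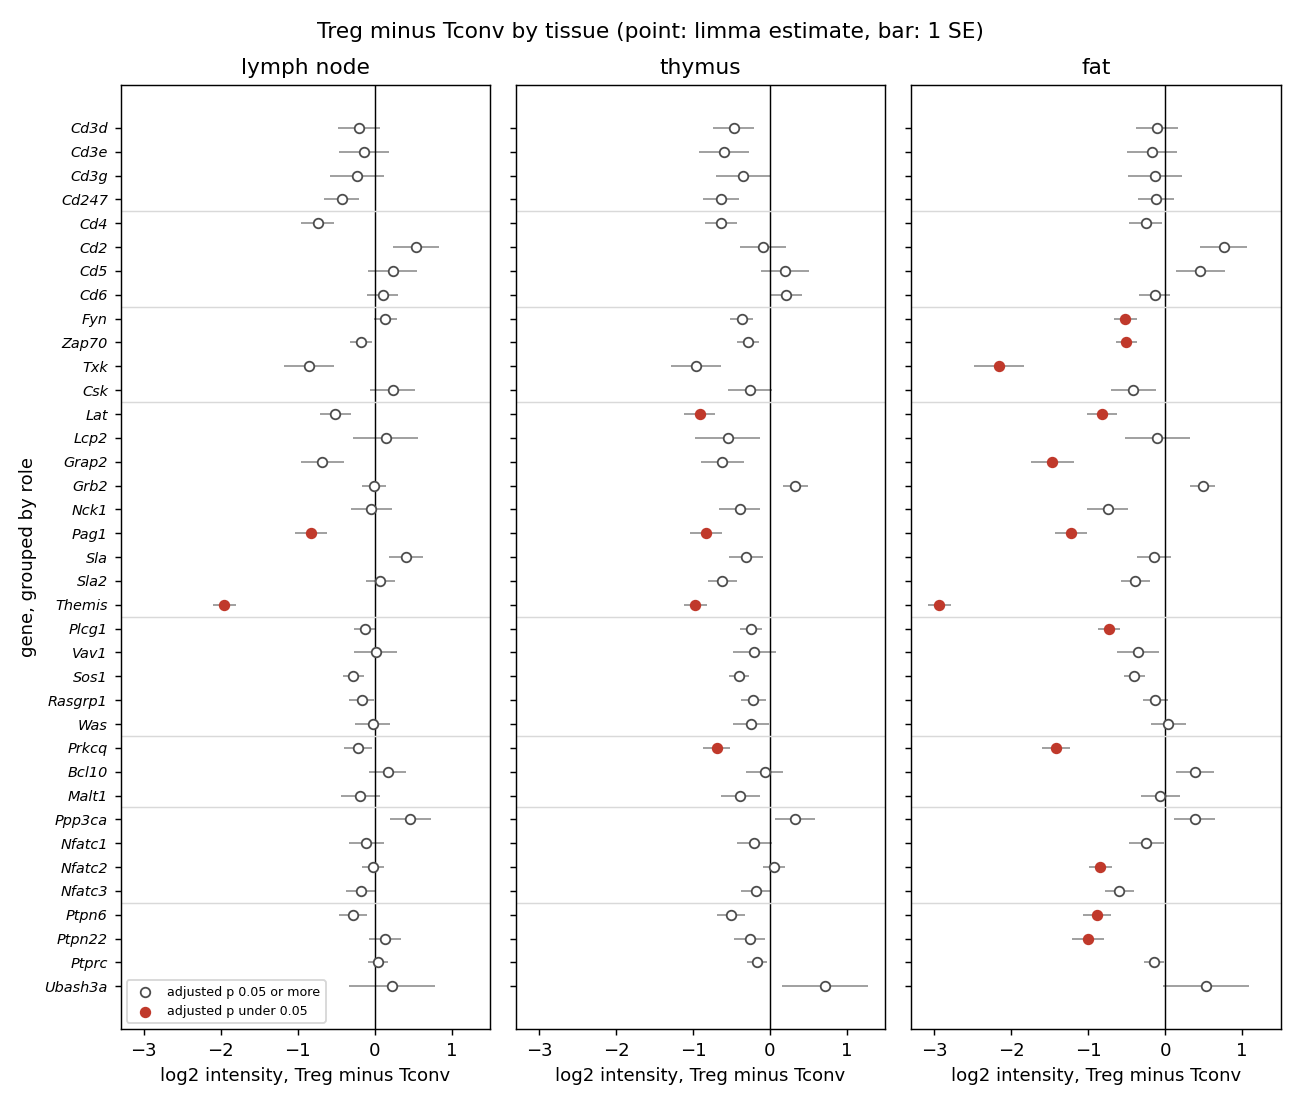
Difference between Treg and Tconv (x axis, log2 intensity, Treg minus Tconv) of the 37 measured genes, grouped by role, in lymph node, thymus and fat. Points are limma estimates without the replicate block, with bars of 1 SE. Filled points have an adjusted p under 0.05: 2 in lymph node, 4 in thymus and 12 in fat, all to the left of 0.

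Among the adaptors, Themis, which is needed for thymocyte selection and binds the phosphatase Ptpn6, showed the largest difference of the 37 genes in each tissue. In lymph node its deposited intensity was 238, 291 and 262 in Treg and 995, 1037 and 1027 in Tconv. In thymus it was 644, 713 and 586 in Treg and 1111, 1460 and 1245 in Tconv. In fat it was 118, 174 and 150 in Treg and 1204, 1063 and 1069 in Tconv. The Treg arrays lay well below the Tconv arrays in every tissue. On this probe set fat Treg held the lowest values while Tconv of the 3 tissues lay close together. Themis was 3.88-fold lower in lymph node Treg (log2 -1.95 ± 0.15 SE, adjusted p = 3.17e-07), 1.96-fold lower in thymus (-0.97 ± 0.15, adjusted p = 0.00054) and 7.63-fold lower in fat (-2.93 ± 0.15, adjusted p = 7.48e-10). Its other probe sets lay between -2.16 and -0.25 in lymph node, -1.53 and -0.64 in thymus and -3.08 and -1.07 in fat.

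Pag1, a membrane adaptor that docks the inhibitory kinase Csk, also separated the cell types in each tissue. Lymph node values were 1779, 1728 and 1039 in Treg and 3189, 2671 and 2091 in Tconv. Thymus values were 1262, 1653 and 1541 in Treg and 2120, 2876 and 2946 in Tconv. Fat values were 943, 908 and 864 in Treg and 2390, 1907 and 2085 in Tconv. The ranges did not overlap, with the narrowest gap in lymph node. Pag1 was 1.77-fold lower in lymph node Treg (-0.83 ± 0.21, adjusted p = 0.0264), lower by the same log2 difference in thymus (-0.83 ± 0.21, adjusted p = 0.0236) and 2.34-fold lower in fat (-1.23 ± 0.21, adjusted p = 0.000454). The call in lymph node was lost without Treg replicate 3, Tconv replicate 1 or Tconv replicate 2 (adjusted p up to 0.148), and that in thymus without Treg replicate 1, Tconv replicate 2 or Tconv replicate 3 (up to 0.118). Fitted on the compared groups alone, Pag1 was called in neither (adjusted p = 0.114 and 0.0597). Other probe sets of Pag1 gave -0.43 to -0.08 in lymph node, -0.41 to -0.05 in thymus and -1.48 to 0.01 in fat.

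Lat is the membrane scaffold on which the signalling complex assembles. Its values were 1707, 1841 and 1026 in lymph node Treg and 2437, 2116 and 1808 in lymph node Tconv, ranges that overlapped slightly. Thymus Treg gave 1035, 1117 and 1057 and thymus Tconv 1522, 2143 and 2484. Fat Treg gave 1164, 1082 and 1084 and fat Tconv 1932, 1965 and 1982. Treg lay clearly lower in thymus (1.88-fold, -0.91 ± 0.20, adjusted p = 0.0099) and in fat (-0.82 ± 0.20, adjusted p = 0.0106), while lymph node gave -0.51 ± 0.20 (adjusted p = 0.26). The thymus call of Lat was lost without Tconv replicate 2 or 3 (adjusted p up to 0.0634) and in a fit on the thymus arrays alone (0.0536). Grap2, which links Lat to Lcp2, was dim outside fat Tconv. In fat it read 170, 147 and 161 in Treg and 744, 252 and 453 in Tconv, so all Treg arrays were low and the Tconv arrays were spread. Grap2 was 2.77-fold lower in fat Treg (-1.47 ± 0.28, adjusted p = 0.00148), with another probe set at -0.24. The remaining 5 adaptors (Lcp2, Grb2, Nck1, Sla and Sla2) were not called in any tissue without the block. With it Lcp2 (adjusted p = 0.0386) and Sla2 (0.012) were lower in thymus Treg, and in fat Treg Nck1 was lower (0.00368) and Grb2 higher (0.00848).

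**Figure D2:**
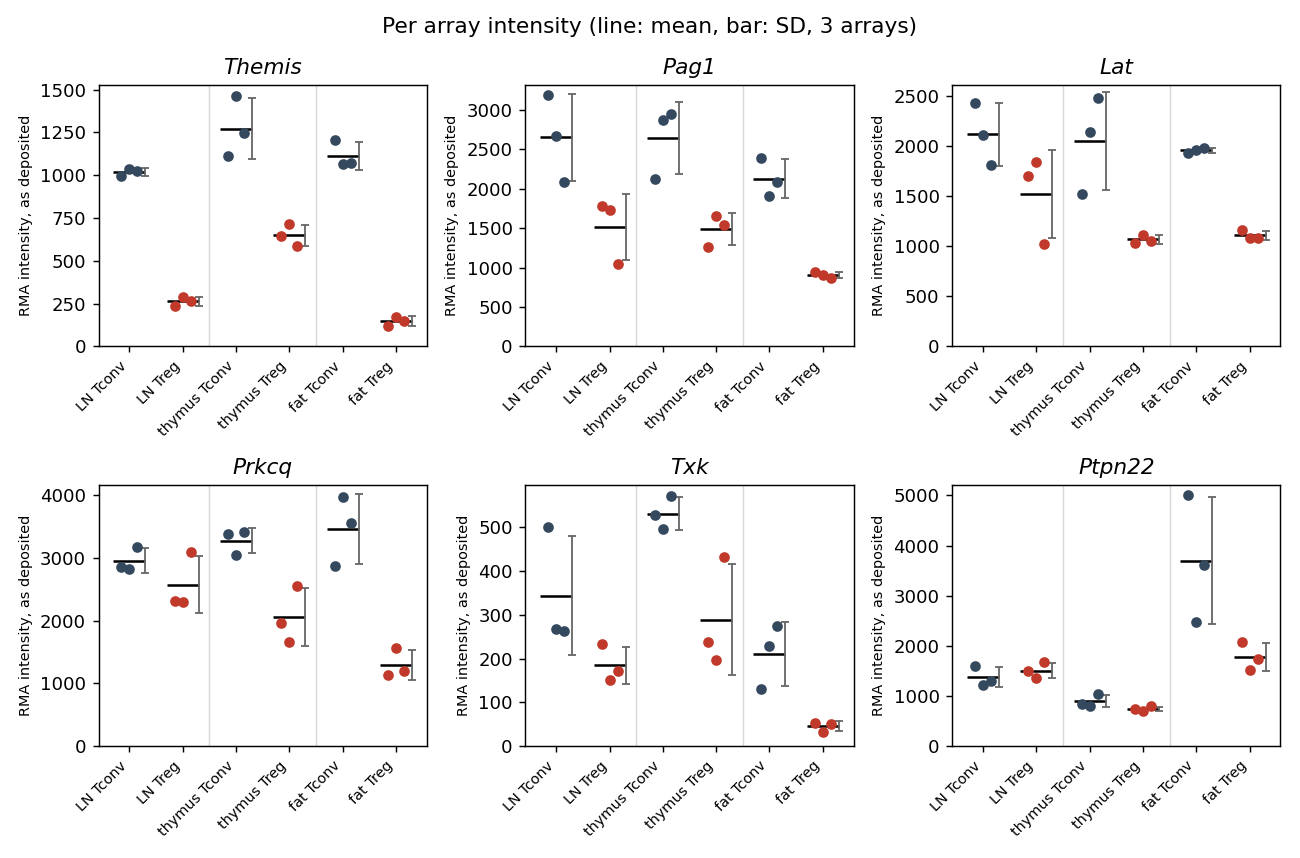
Deposited intensity (y axis, linear scale from 0) of 6 genes on each of the 18 arrays, with Tconv in blue and Treg in red; lines are means and bars SD over 3 arrays. Treg lie below Tconv in all 3 tissues for Themis and Pag1, while Ptpn22 separates the cell types in fat, where Tconv read 2474 to 4999 and Treg 1527 to 2080.

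Promoter sequences are shown for the genes called lower in Treg of at least 2 tissues without the replicate block. RefSeq's promoter table (GRCm38.p6) held 30 of the 38 genes, and of these 4 it held Lat, Themis and Prkcq. The 250 bases before the start of each gene are printed on the gene's strand, 5′ to 3′, with capitals for the Ets core GGAAG or its complement CTTCC. Lat lies at chr7:126369569-126369818 (minus strand), Themis at chr10:28668110-28668359 (plus strand, the first of 2 listed starts) and Prkcq at chr2:11172132-11172381 (plus strand).
Lat: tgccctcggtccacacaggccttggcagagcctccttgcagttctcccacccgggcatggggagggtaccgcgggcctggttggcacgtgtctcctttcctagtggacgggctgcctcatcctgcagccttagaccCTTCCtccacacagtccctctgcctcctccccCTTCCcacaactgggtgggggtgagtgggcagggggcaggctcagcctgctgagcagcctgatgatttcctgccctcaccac
Themis: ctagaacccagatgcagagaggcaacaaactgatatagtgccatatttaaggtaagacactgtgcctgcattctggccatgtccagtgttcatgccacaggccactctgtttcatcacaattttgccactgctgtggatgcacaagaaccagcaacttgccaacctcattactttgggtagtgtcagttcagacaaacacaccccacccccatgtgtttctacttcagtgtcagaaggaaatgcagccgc
Prkcq: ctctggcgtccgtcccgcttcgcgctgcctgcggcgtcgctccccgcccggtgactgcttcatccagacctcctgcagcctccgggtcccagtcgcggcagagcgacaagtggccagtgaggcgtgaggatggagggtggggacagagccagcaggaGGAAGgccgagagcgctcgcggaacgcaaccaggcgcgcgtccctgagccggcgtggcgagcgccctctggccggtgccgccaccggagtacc
The Lat window held 2 matches to the Ets core, the Prkcq window 1 and the Themis window 0. The core was present, on either strand, in 20 of the 30 promoters of the set and in 64.1% of all 32851 promoters of this length. TAAACA, a forkhead core, was in 3 of the 30 and in 3952 of the 32851, TGTGGT, a Runx core, in 4 and 14.0% of all, GGAAAA, an NFAT core, in 6 and 20.4%, and CTTTGA, a Tcf core, in 7 and 13.8%. None of these other 4 motifs was found in the 3 windows, and the printed matches did not overlap. These matches describe letters, not bound sites.

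The 4 genes grouped here as kinases are Fyn, Zap70, Txk and Csk, while Prkcq is grouped with the NF-kB branch described below. Without the block, 3 of these 4 were called lower in fat Treg and none in the other tissues. None of their Treg effects was called different between tissues. Txk, a Tec family kinase, read 53.8, 33.2 and 51.2 in fat Treg and 130, 230 and 273 in fat Tconv. Each fat Treg array lay under the filter level of 65.9, and the lowest Tconv array was above the highest Treg array. Txk was lower in fat Treg (adjusted p = 0.000146), by at least 3.06-fold when the Treg values are set to the filter level. In thymus it gave -0.96 ± 0.32 (adjusted p = 0.117, and 0.0252 with the block) and in lymph node -0.85 ± 0.32 (adjusted p = 0.232). Zap70, the kinase that docks on the phosphorylated receptor, read 562, 661 and 678 in fat Treg and 855, 879 and 956 in fat Tconv. Those groups lay apart, and the difference was small (-0.50 ± 0.14, adjusted p = 0.025). In lymph node Zap70 read 594, 607 and 684 in Treg and 689, 613 and 850 in Tconv, and in thymus 624, 534 and 485 in Treg and 701, 676 and 617 in Tconv. The ranges overlapped in both, with differences of -0.18 ± 0.14 (adjusted p = 0.833) and -0.28 ± 0.14 (adjusted p = 0.368). Over all probe sets of Zap70 the mean difference in fat was -0.23 (adjusted p = 0.233), and its call was lost without Treg replicate 1, Tconv replicate 2 or Tconv replicate 3 (adjusted p up to 0.127). Fyn, a Src family kinase, was lower in fat Treg by -0.52 ± 0.15 (adjusted p = 0.0275, other probe set -0.62), a call lost without any 1 of the 6 fat arrays except Tconv replicate 1 (adjusted p up to 0.11). Fyn was also called in thymus with the block (-0.37, adjusted p = 0.0479). Csk was not called in any tissue.

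In the branches below the scaffold, Prkcq, which encodes protein kinase C theta and feeds the NF-kB branch, differed most. Thymus Treg read 1958, 1658 and 2559 and thymus Tconv 3378, 3050 and 3412. Fat Treg read 1133, 1565 and 1191 and fat Tconv 2869, 3967 and 3567. Treg were lower without overlap in both tissues, and the gap was wider in fat. Prkcq was 1.62-fold lower in thymus Treg (-0.69 ± 0.18, adjusted p = 0.0303) and 2.68-fold lower in fat Treg (-1.42 ± 0.18, adjusted p = 2.35e-05). The thymus call did not hold without Treg replicate 1 or 2 or any 1 of the 3 Tconv arrays (adjusted p up to 0.163), nor in a fit on the thymus arrays alone (0.106). Its partners further down, Bcl10 and Malt1, were not called without the block, and Bcl10 was higher in fat Treg with it (adjusted p = 0.0324). Phospholipase C gamma (Plcg1) was lower in fat Treg by -0.73 ± 0.14 (adjusted p = 0.0017), although another probe set above the filter gave 0.06. Nfatc2, a transcription factor released by calcineurin, was lower in fat Treg by -0.84 ± 0.15 (adjusted p = 0.000667), and its other probe sets above the filter gave -0.13 to -0.11. With the mean of all probe sets neither Plcg1 (-0.25, adjusted p = 0.108) nor Nfatc2 (-0.20, adjusted p = 0.216) was called. Vav1, Sos1, Rasgrp1, Was, Ppp3ca, Nfatc1 and Nfatc3 were not called in any tissue without the block. With it Ppp3ca, a calcineurin subunit, was higher in Treg of lymph node (adjusted p = 0.0366) and fat (0.0447), and Nfatc3 was lower in fat Treg (0.0397).

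Of the 4 phosphatase genes, Ptpn22 and Ptpn6 were lower in fat Treg. Ptpn22 restrains Src family kinases together with Csk. It was 2.01-fold lower (adjusted p = 0.00261). Ptpn6, a phosphatase recruited by inhibitory receptors, was 1.85-fold lower (-0.89 ± 0.18, adjusted p = 0.00244, other probe set -1.02), and with the block it was lower in thymus Treg too (adjusted p = 0.0406). Ubash3a and Ptprc were not called. Ptprc encodes CD45, whose B220 form served in the sort, so its level is not independent of the gate.

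The receptor chains were not called in any tissue without the block. Cd3e read 1326, 2109 and 1309 in lymph node Treg and 1135, 2040 and 2121 in Tconv, 995, 1430 and 689 in thymus Treg and 1441, 2403 and 985 in Tconv, and 2092, 2164 and 1648 in fat Treg and 2570, 2235 and 1868 in Tconv. The cell types overlapped in each tissue, with differences of -0.14 ± 0.32, -0.60 ± 0.32 and -0.17 ± 0.32 (adjusted p = 0.977, 0.433 and 0.866). With the replicate block the thymus difference of Cd3e was called (adjusted p = 0.0255). Cd247, the zeta chain with most of the receptor's phosphorylation motifs, read 706, 600 and 702 in lymph node Treg and 989, 851 and 858 in Tconv. In thymus it read 1229, 723 and 797 in Treg and 1830, 1223 and 1182 in Tconv, and in fat 946, 959 and 1021 in Treg and 723, 1305 and 1258 in Tconv. The lymph node groups lay apart, while those of thymus and fat overlapped. Differences were -0.43 ± 0.23, -0.63 ± 0.23 and -0.12 ± 0.23 (adjusted p = 0.579, 0.154 and 0.878; 0.0139 in thymus with the block). Across the 4 chains the differences ran from -0.43 to -0.14 in lymph node, -0.63 to -0.35 in thymus and -0.17 to -0.11 in fat. Fat Tconv replicate 1 was low for Cd3d (2363 against 5037 and 4614), Cd3g (1207 against 2844 and 3570) and Cd247. Without that array the median of the 37 genes in fat moved from -0.25 to -0.45 and 14 of them were called lower.

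Cd4, the coreceptor that every cell was sorted on, read 441, 521 and 417 in lymph node Treg and 568, 801 and 980 in Tconv. Thymus gave 346, 457 and 403 in Treg and 481, 867 and 571 in Tconv, and fat gave 618, 562 and 480 in Treg and 703, 661 and 607 in Tconv. The groups did not overlap in lymph node and thymus and overlapped in fat. The differences were -0.74 ± 0.21, -0.63 ± 0.21 and -0.25 ± 0.21 (adjusted p = 0.0642, 0.116 and 0.611), and the block called the differences in lymph node (adjusted p = 0.00916) and thymus (adjusted p = 0.0187). Cd2, an adhesion receptor that aids contact with the antigen-presenting cell, pointed the other way in fat at 0.76 ± 0.30 (adjusted p = 0.14, and 0.0145 with the block). Cd5 and Cd6, which dampen receptor signals, were not called.

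**Figure D3:**
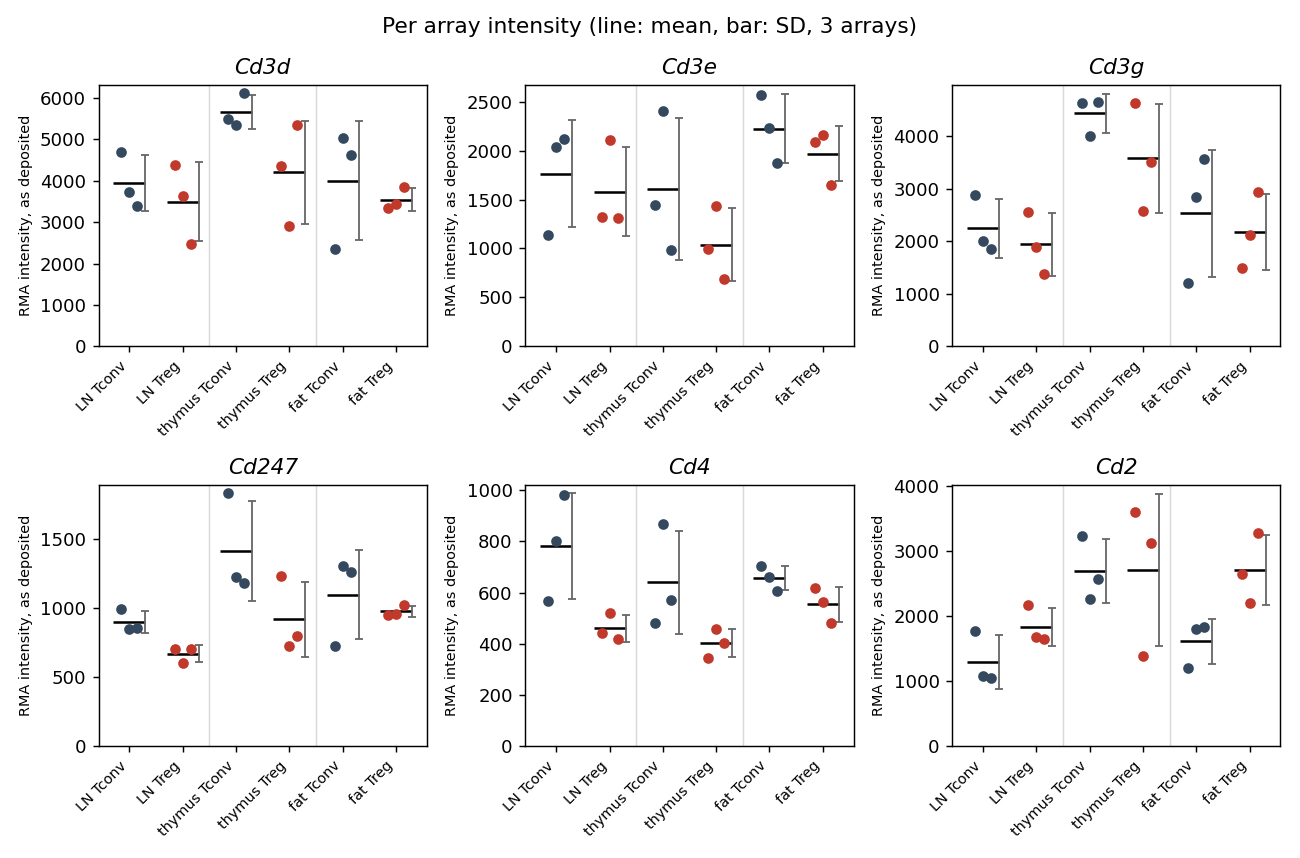
Deposited intensity (y axis, linear scale from 0) of the 4 receptor chains, Cd4 and Cd2 on each array, with Tconv in blue and Treg in red; lines are means and bars SD over 3 arrays. Treg and Tconv overlap for Cd3e in every tissue, and 1 fat Tconv array is low for Cd3d, Cd3g and Cd247.

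The next comparison asks whether the Treg difference in fat departs from that in lymph node, by the difference of the 2 log2 ratios. In 4 of the 37 genes the Treg minus Tconv difference was called lower in fat than in lymph node. None was called the other way, against 2.69% and 2.16% of all genes called lower and higher. Prkcq differed by -1.21 ± 0.25 (adjusted p = 0.00767), Ptpn22 by -1.14 ± 0.29 (adjusted p = 0.0283), Themis by -0.98 ± 0.21 (adjusted p = 0.00968) and Nfatc2 by -0.82 ± 0.21 (adjusted p = 0.0275). The lymph node ranges of Treg and Tconv overlapped for Prkcq, Ptpn22 and Nfatc2, with differences there of -0.21, 0.13 and -0.02. In every setting tried Prkcq (adjusted p up to 0.0247) and Themis (up to 0.0391) were called. Ptpn22 fell short in 8 of 21 settings and Nfatc2 in 9 of 21. Ptpn22 was lost without lymph node Treg replicate 1 or 3, lymph node Tconv replicate 2 or 3, fat Treg replicate 2 or 3, or fat Tconv replicate 3 (adjusted p up to 0.0818). Nfatc2 was lost without lymph node Treg replicate 1 or 2, lymph node Tconv replicate 2 or 3, fat Treg replicate 1 or 3, or fat Tconv replicate 2 (up to 0.0857), and the mean of all probe sets took that of Nfatc2 to 0.713. With the replicate block 7 genes were called lower, adding Fyn, Txk and Plcg1, where 6.37% of all genes were called lower and 4.67% higher. Between thymus and lymph node none of the 37 differences of Treg effects was called, with 1 gene higher and 3 lower at an unadjusted p under 0.05, against 0.156% of all genes called higher and 0.148% lower. With the block Themis was called there, since its Treg difference was smaller in thymus (0.406% of all genes called higher). These comparisons reuse the Treg and Tconv arrays of the comparisons within tissues.

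Fat was then compared with lymph node within each cell type, on the common scale. In Treg, 10 of 37 genes (27.0%) were lower in fat and 3 (8.11%) higher, against 18.2% and 16.1% of all genes. In Tconv, 4 (10.8%) were lower and 6 (16.2%) higher, against 11.6% and 10.9%, shares near the background. The medians of the 37 genes were -0.15 in Treg and -0.01 in Tconv, beside 0.01 and -0.03 over all genes. The fat arrays lay wholly below the lymph node arrays in 12 genes in Treg and 5 in Tconv, against 25.8% and 19.4% of all genes, and wholly above in 7 and 9, against 23.7% and 16.8%. On the scale as deposited, where the median of all genes was 0.37 in Treg and 0.33 in Tconv, 7 were lower and 7 higher in Treg, and 2 lower and 13 higher in Tconv. On that scale 9.2% of all genes were lower and 45.5% higher in Treg, and 4.1% and 38.2% in Tconv, so the higher share in Tconv (35.1%) was near that of all genes. Stromal and macrophage markers (higher in fat in both cell types) and B cell markers (3 of 4 tested lower and 1 higher in fat Treg) moved with these comparisons.

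Txk was among the genes lower in fat Treg. Its common-scale intensity was 232, 160 and 193 in lymph node Treg and 42.5, 26.9 and 42.8 in fat Treg. The groups lay far apart and the fat arrays were below the filter level, so the difference is at least 2.93-fold against that level (adjusted p = 9.64e-06). Tconv moved the same way, from 499, 297 and 314 in lymph node to 110, 189 and 231 in fat (-1.09 ± 0.30, adjusted p = 0.0146). That Tconv difference was not called as deposited (-0.70, adjusted p = 0.0883), nor without lymph node or fat Tconv replicate 1 (adjusted p up to 0.0912). Ptpn6 was lower in fat in both cell types. It read 1485, 1838 and 2243 in lymph node Treg and 578, 667 and 662 in fat Treg, and 2114, 2329 and 2390 in lymph node Tconv and 933, 1582 and 1100 in fat Tconv. Neither pair of groups overlapped (-1.53 ± 0.18, adjusted p = 4.24e-06 in Treg; -0.95 ± 0.18, adjusted p = 0.0009 in Tconv). Another probe set of Ptpn6 gave -1.81 and -1.09.

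Prkcq read 2461, 2531 and 3701 in lymph node Treg and 968, 1353 and 1008 in fat Treg. Themis read 239, 298 and 301 in lymph node Treg and 96.6, 156 and 129 in fat Treg. For both genes every fat Treg array was below every lymph node Treg array (-1.38 ± 0.19, adjusted p = 2.54e-05; -1.15 ± 0.18, adjusted p = 8.54e-05), and neither was called in Tconv. Other probe sets of Themis, all above the filter, gave -1.52 to -0.07 in Treg and -0.67 to 1.54 in Tconv. Lat read 1772, 1983 and 1228 in lymph node Treg and 989, 960 and 922 in fat Treg (-0.77 ± 0.17, adjusted p = 0.00216). In Tconv Lat read 2514, 2401 and 2143 in lymph node and 1805, 1683 and 1654 in fat, without overlap, and the difference was not called (-0.45, adjusted p = 0.0663) except with the range of the scanner file numbers in the labels as a block (0.04). Fat Treg were also lower for Pag1 (-1.04 ± 0.18), Csk (-0.88 ± 0.28), Plcg1 (-0.82 ± 0.15), Sos1 (-0.72 ± 0.13) and Fyn (-0.66 ± 0.14). Csk was lost without lymph node Treg replicate 3 or fat Treg replicate 1 (adjusted p up to 0.0954). As deposited, Lat, Fyn and Csk were not called (adjusted p = 0.09, 0.0622 and 0.0762). With the mean of all probe sets, Pag1 and Plcg1 were not called in Treg (-0.05 and -0.16, adjusted p = 0.744 and 0.195). Sos1 was not tested in that setting, and its other probe set above the filter gave 0.13 in Treg.

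In Tconv, Sos1, a guanine nucleotide exchange factor for Ras, read 429, 421 and 525 in lymph node and 258, 311 and 284 in fat. Fat arrays were lower without overlap (-0.69 ± 0.13, adjusted p = 0.000915), while another probe set above the filter gave 0.31. Pag1 read 3368.02, 3049 and 2496 in lymph node Tconv and 2162, 1633 and 1737 in fat Tconv. These groups did not overlap either (-0.69 ± 0.18, adjusted p = 0.0111), but its other probe sets gave -0.32 to 2.00, and the mean of all of them was higher in fat (0.39, adjusted p = 0.00868). The direction of Pag1 between these tissues in Tconv thus depended on the probe set, and its call was lost without lymph node Tconv replicate 1 (adjusted p = 0.0549).

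Grb2, Malt1 and Nfatc2 were higher in fat in both cell types. Grb2, the adaptor that brings Sos1 to the membrane, read 465, 613 and 483 in lymph node Treg and 1095, 1134 and 1231 in fat Treg. In Tconv it read 482, 586 and 559 in lymph node and 892, 860 and 787 in fat. All fat arrays lay above all lymph node arrays (1.16 ± 0.16, adjusted p = 2.79e-05 in Treg; 0.65 ± 0.16, adjusted p = 0.00733 in Tconv). Malt1, the protease of the complex that activates NF-kB, read 1259, 1357 and 1171 in lymph node Treg and 1793, 2439 and 2750 in fat Treg. In Tconv it read 1453, 1677 and 1277 in lymph node and 1901, 2841 and 2904 in fat. The tissues were apart in both cell types (0.86 ± 0.24, adjusted p = 0.00886; 0.78 ± 0.24, adjusted p = 0.0239), and other probe sets gave 0.95 to 1.34. The Tconv call of Malt1 was lost when arrays were centred on their median (0.76, adjusted p = 0.0621), and without lymph node replicate 1 or 3 or fat replicate 2 or 3 (up to 0.0943).

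Nfatc2 read 558, 641 and 599 in lymph node Treg and 740, 1023 and 877 in fat Treg, and 601, 640 and 633 in lymph node Tconv and 1741, 1628 and 1392 in fat Tconv. Fat Tconv held the highest values, and in both cell types fat lay above lymph node (0.54 ± 0.14, adjusted p = 0.00734 in Treg; 1.34 ± 0.14, adjusted p = 3.81e-06 in Tconv). Of 5 other probe sets, the 2 above the filter gave 0.22 to 0.36, and all 5 ran from -0.34 to 0.27 in Treg and -0.15 to 0.36 in Tconv. The Treg call of Nfatc2 was lost with the mean of all probe sets (0.17, adjusted p = 0.156) and when arrays were centred on their median (0.41, adjusted p = 0.054). Grap2 read 167, 144 and 111 in lymph node Tconv and 726, 208 and 380 in fat Tconv, a scattered group that still lay above lymph node (1.47 ± 0.31, adjusted p = 0.00204, other probe set -0.24). Ptpn22 read 1631, 1375 and 1557 in lymph node Tconv and 4327, 2132 and 2972 in fat Tconv, again without overlap (0.99 ± 0.20, adjusted p = 0.00167). Sla, an adaptor that lowers receptor levels in thymocytes, was higher in fat Tconv by 0.64 ± 0.22 (adjusted p = 0.046), a call lost without any 1 of the 6 Tconv arrays except fat replicate 2 (up to 0.195). In Treg the same comparison gave -0.13 for Ptpn22, which was not called.

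Cd3e, Cd247, Cd4 and Zap70 were not called between fat and lymph node in either cell type. The fat gate alone required TCRb, a chain of the same receptor, so Cd3e and Cd247 levels between these tissues are not independent of the gate. Cd3e gave -0.06 in Treg and 0.01 in Tconv (adjusted p = 0.908 and 0.991), and Cd247 gave 0.24 and -0.08 (adjusted p = 0.413 and 0.833). Zap70 gave -0.26 and 0.00 (adjusted p = 0.259 and 0.991). Cd4 gave 0.01 and -0.55 (adjusted p = 0.97 and 0.122). The scanner file numbers in the labels fall into 5 ranges. With the range as a block Cd4 was lower in fat Tconv (adjusted p = 0.0149), and calls came to 11 lower and 6 higher in Treg (adding Cd5, Vav1, Bcl10 and Ppp3ca) and 6 lower and 10 higher in Tconv (adding Cd4, Lat, Lcp2, Nck1, Bcl10 and Ppp3ca). Of all genes 23.6% were then lower and 21% higher in Treg, and 17.4% and 14.8% in Tconv. Of those ranges 3 held both lymph node and fat arrays. Within them the median fat minus lymph node difference of the 37 genes was -0.06, -0.15 and -0.21 in Treg and -0.02, 0.09 and -0.09 in Tconv.

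**Figure D4:**
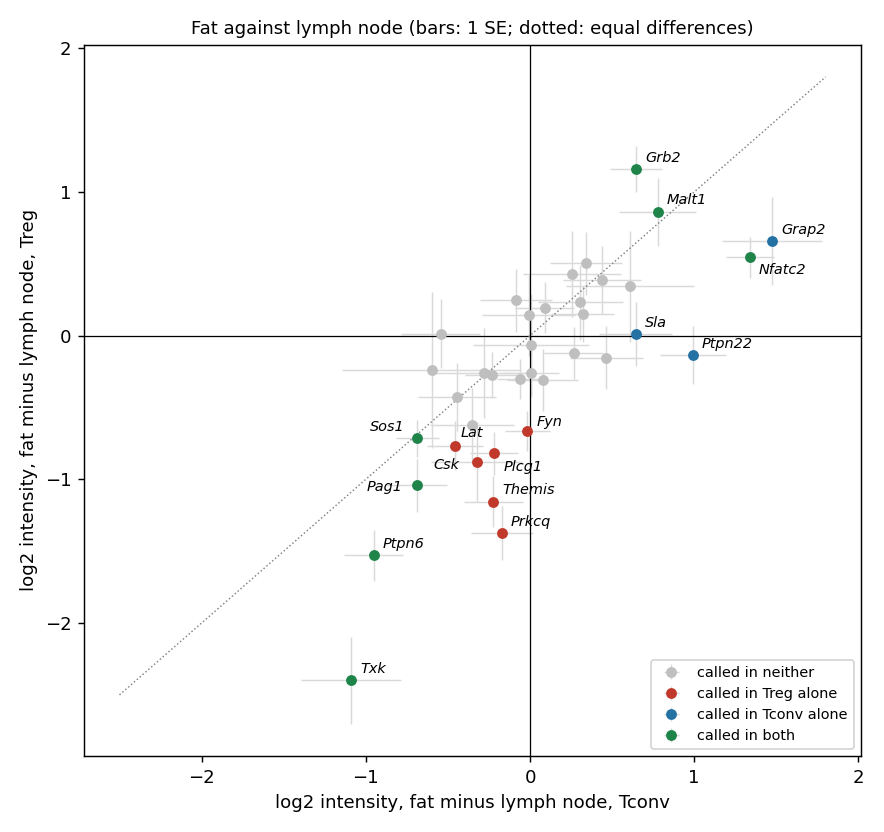
Fat minus lymph node difference of the 37 genes in Tconv (x axis) and Treg (y axis), in log2 intensity on the common scale, with bars of 1 SE; colours mark in which cell type a gene was called. Txk, whose fat Treg values are under the filter level, lies lowest in the plot, and Ptpn22, Grap2 and Nfatc2 lie to the right at 0.99, 1.47 and 1.34. The axes rest on separate arrays, 6 each.

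**Figure D5:**
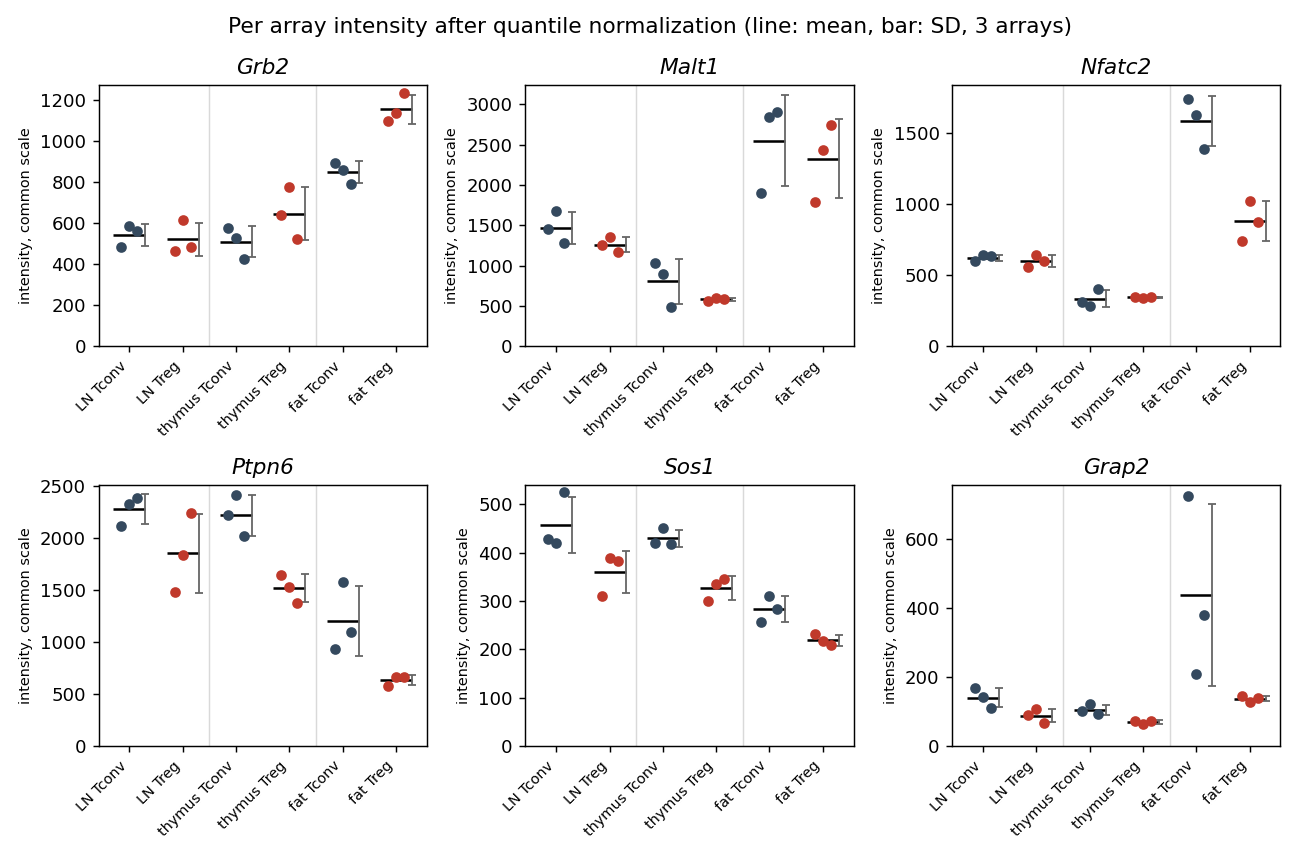
Intensity after quantile normalization of all 18 arrays (y axis, linear scale from 0) of Grb2, Malt1, Nfatc2, Ptpn6, Sos1 and Grap2 on each array, with Tconv in blue and Treg in red; lines are means and bars SD over 3 arrays. Grb2 reads 787 to 1231 in the 6 fat arrays and 465 to 613 in the 6 lymph node arrays, and Ptpn6 and Sos1 run the other way.

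Thymus was compared with lymph node on the same scale, with the confounding of strain and age stated above. In Treg, 5 of 37 genes were lower in thymus and 1 higher, against 5.71% and 6.12% of all genes. The lower genes were Malt1 (-1.11 ± 0.24), Ptpn22 (-1.06 ± 0.20), Nfatc1 (-0.90 ± 0.26), Nfatc2 (-0.79 ± 0.14) and Lat (-0.54 ± 0.17, adjusted p = 0.0496), and Themis was higher (1.28 ± 0.18, adjusted p = 0.000116). In Tconv, 5 were lower and 1 higher, against 4.5% and 4.38%. Malt1 (-0.92), Nfatc2 (-0.92), Nfatc1 (-0.87) and Ptpn22 (-0.69) were lower in Tconv too, along with Ubash3a (-2.20 ± 0.54, adjusted p = 0.015), and Cd2 was higher (1.05 ± 0.28, adjusted p = 0.026). Another probe set of Ubash3a gave -0.05, the call of Nfatc1 in Tconv rested on groups that overlapped, and that of Lat was lost in 12 of 15 settings. With the scanner file number range as a block, Nfatc1 fell to -0.34 in Treg (adjusted p = 0.499) and -0.31 in Tconv (0.552), and neither Nfatc2 in Treg (0.0606) nor Ptpn22 in Tconv (0.0899) was called, while Cd3e was lower in thymus Treg (-0.94, adjusted p = 0.0213) and Ppp3ca and Ubash3a in Treg and Rasgrp1 in Tconv were called as well. The replicate block lost Nfatc1 in Tconv (0.0615) and Lat in Treg (0.0536). Between these tissues, however, the number did not mark arrays that varied together. Deviations from group means correlated at -0.277 to 0.260 for the same number and at -0.172 to 0.294 for different numbers. With the mean of all probe sets Nfatc2 was called in neither Treg (-0.21, adjusted p = 0.154) nor Tconv (-0.29, adjusted p = 0.0555), nor was Malt1 in Tconv (-0.56, adjusted p = 0.156). That setting also called Lcp2, Sla, Ppp3ca and Ubash3a in Treg and Lcp2, Themis and Rasgrp1 in Tconv. In Treg it gave 8 of 36 members lower and 1 higher, against 6.17% and 7.02% of all genes. In Tconv it gave 4 and 3, against 4.86% and 4.81%. Another probe set of Lcp2 gave -2.72 in Treg and -2.11 in Tconv. Cd247 was not called, but other probe sets of it above the filter gave -1.43 to -0.30 and -1.44 to -0.11. Malt1 was also lost in Tconv with arrays centred (0.0787) and in a fit on the compared groups alone (0.0502). Without lymph node Tconv replicate 2, Malt1, Ptpn22, Nfatc1, Ubash3a and Cd2 were all lost in Tconv. Leaving out any other 1 of the 6 Tconv arrays lost Ptpn22 (adjusted p up to 0.147), with Nfatc1, Cd2 or Malt1 beside it in 4 of the 5 cases, and Nfatc1 in Treg was lost without thymus replicate 1 or 2 or lymph node replicate 2 or 3. The summed intensity of 6 immature thymocyte markers was 2275 to 5112 in thymus and 1266 to 1837 in lymph node arrays. Cd1d1 made up most of the lymph node sum (1243 in Treg and 1144 in Tconv) and was at 1347 and 1415 in thymus. Dntt was at 100 and 320 in lymph node Treg and Tconv and at 2367 and 1519 in thymus. The part of these markers in the differences between thymus and lymph node was not tested.

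For the wider pathway, 84 other genes were listed and 67 had a probe set and passed the filter. In lymph node Treg 6 were higher and 1 lower, in thymus 2 and 2, and in fat 5 higher and 12 lower. The shares of all genes were those given above for the same comparisons: 3.21% higher and 1.11% lower, 3.21% and 1.77%, and 6.32% and 5.19%. Vav2 was higher in Treg of all 3 tissues (2.14 ± 0.22 in lymph node, 1.49 ± 0.22 in thymus and 1.72 ± 0.22 in fat), while its relative Vav1, among the 37, was not called. Lymph node Treg were also higher for Vav3 (1.00 ± 0.22), the phosphatase gene Ubash3b (0.88 ± 0.24) and the NF-kB inhibitor Tnfaip3 (0.80 ± 0.19), and lower for the kinase gene Tec (-0.72 ± 0.16). In thymus Treg the ubiquitin ligase gene Cblb was higher (0.72 ± 0.19), and the Ras GTPase activator Rasal3 (-1.05 ± 0.28) and the costimulatory receptor Cd28 (-0.71 ± 0.16) were lower. In fat Treg the lower genes included Sh2d1a, the adaptor of SLAM family receptors (under the filter level in all 3 Treg arrays, at least 2.44-fold), the receptor-associated adaptor Trat1 (-2.44 ± 0.18), Cblb (-1.98 ± 0.19) and Vav3 (-1.60 ± 0.22). Ubash3b (2.20 ± 0.24), the adaptor Nck2 (1.04 ± 0.19) and the calcium channel Orai1 (0.82 ± 0.24, groups overlapping) were higher there. For Cblb and Vav3 the difference ran opposite ways in fat and in thymus or lymph node. The fat Treg effect minus the lymph node effect was -2.24 ± 0.27 for Cblb and -2.601 ± 0.31 for Vav3, both called.

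Between fat and lymph node, 9 of the 67 genes were higher and 20 lower in fat Treg, and 10 higher and 7 lower in fat Tconv. Beside them, 16.1% and 18.2% of all genes were higher and lower in Treg, and 10.9% and 11.6% in Tconv. Tnfaip3 was much higher in fat in both cell types (2.90 ± 0.22 in Treg and 3.28 ± 0.22 in Tconv). In Treg, Nck2 (1.87 ± 0.18) was higher, and Sh2d1a (at least 2.69-fold, fat arrays under the filter level), Trat1 (-2.28 ± 0.19) and the diacylglycerol kinase gene Dgkz (-2.02 ± 0.45) were lower. In Tconv, Vav3 (2.40 ± 0.21) and Cblb (1.24 ± 0.20) were higher, and Dgka (-0.88 ± 0.25) and Rac1 (-0.72 ± 0.16) were lower. Between thymus and lymph node 2 were higher and 6 lower in each cell type, against 6.12% and 5.71% of all genes in Treg and 4.38% and 4.5% in Tconv; the lower ones included Pdk1 (-2.90 ± 0.28 in Treg), which encodes a pyruvate dehydrogenase kinase and not a kinase of the receptor pathway.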

How the data were processed

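The authors deposited 1 linear intensity per probe set and array, from RMA run in GenePattern, per the submitters' processing notes; the version and which arrays were normalized together are not given in the sources used here. Of 45101 probe sets, 64 were controls, 34945 carried 1 gene symbol in the platform annotation, 932 several and 9160 none. For each gene the probe set with the highest mean over 18 arrays was kept, and genes were tested where at least 1 group mean exceeded the median of all values (log2 6.04).

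Log2 intensity was fitted with limma 3.58.1 in R 4.3.3 (lmFit, eBayes) over all 18 arrays, with 1 coefficient per group (12 residual degrees of freedom). Treg were compared with Tconv within a tissue on deposited values, and tissues after quantile normalization of all 18 arrays. P-values were adjusted over 12821 genes by the Benjamini-Hochberg method and called under 0.05. The fit was also run on simulated data with independent noise on each array, which cannot show how it handles arrays that vary together. Arrays give no depth, so 3 arrays per group limit the precision. Stated ± values are standard errors. Deviations from group means over genes correlated at 0.351 to 0.678 between Treg and Tconv arrays of one tissue and replicate number, and at -0.559 to 0.190 for different numbers, so values with the replicate block are given where it changed a call between Treg and Tconv. The numbers come from the labels, which do not say what they mark.

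Each array's value is given for up to 4 called genes per direction, with the largest differences among groups that did not overlap, in each comparison within a tissue and of fat with lymph node, and always for Cd3e, Cd247, Cd4, Zap70 and Lat. Other called members have a log2 difference, and up to 4 other pathway genes are named per direction. The genes and lists were chosen with earlier results of these data known. Alternatives were other scalings, the replicate number or scanner file number range as a block, other dim filters, the mean of all probe sets, an eBayes trend, fits on the compared groups alone and leaving out each array.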

Additional observations from a re-analysis of the deposited data

Results flagged for a closer look

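The Treg effect differed between fat and lymph node, by a limma test of the difference, in Themis (-0.98), Prkcq (-1.21), Nfatc2 (-0.82) and Ptpn22 (-1.14), all as log2 fat minus lymph node.

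In some other genes all 3 replicate pairs of one tissue moved up in Treg and all 3 of another moved down. Thymus minus lymph node this held for Fyn (-0.51), Sla (-0.72) and Sla2 (-0.70), and fat minus lymph node for Cd6 (-0.24) and Fyn (-0.66). The direction of the pairs was not tested as such, and the limma test of the difference without the block called none of these. How many of all genes show this pattern was not counted. Some pair values lay near 0, such as Cd6 at 0.03 in lymph node replicate 1 and -0.02 in fat replicate 3.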

How the results depend on the processing

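With the replicate block the counts over all genes were 1028 in lymph node, 1528 in thymus, 2652 in fat, 1416 for the fat minus lymph node effect and 136 for thymus minus lymph node, and the members called came to 4 in lymph node, 12 in thymus, 7 and 1 for the effects. With the scanner file number range as a block, all-gene counts were 876 in lymph node, 1209 in thymus, 998 for thymus against lymph node Treg, 1090 and 82 for the effects; members called were 10 in thymus, 16 for fat against lymph node Tconv, 7 and 1 for the effects, and the median was -0.027 for thymus against lymph node Treg and 0.045 in Tconv. Fitted on the compared groups alone, thymus gave 383 genes and 1 member, lymph node 1 member, and thymus against lymph node Treg 753 genes; centring arrays left 1 member in lymph node and a median of 0.032 for thymus against lymph node Tconv. As deposited, fat against lymph node gave 7018 genes (5838 higher, 1180 lower) and a median of 0.22 in Treg, and 5425 (4899 higher, 526 lower) and 0.33 in Tconv; on the common scale 2060 were higher and 2332 lower in Treg, and 1402 and 1485 in Tconv. Thymus against lymph node Tconv then had a median of 0.014. The mean of all probe sets gave a median of 0.090 for fat against lymph node Tconv and reversed Pag1 there (0.39). In each case the cause was not tested.

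Leaving out 1 array at a time, genes called ranged from 388 to 464 in lymph node, 437 to 976 in thymus, 1104 to 1593 in fat, at most 4233 and 2166 to 2881 for fat against lymph node Treg and Tconv, 949 to 1831 and 769 to 1060 for thymus against lymph node, 468 to 766 and 24 to 69 for the effects. Members called ranged from 1 to 2, 1 to 5, 10 to 14, 12 to 14, 7 to 9, 4 to 7, 1 to 5, 2 to 7 and 0 to 1 in the same order. Medians of the members ranged from -0.16 to -5.46e-05 in lymph node, -0.35 to -0.22 in thymus, -0.45 to -0.25 in fat, -0.23 to -0.12 and -0.078 to -0.00499 for fat against lymph node, -0.29 to -0.13 and -0.019 to 0.051 for thymus against lymph node, -0.39 to -0.20 and -0.28 to -0.08 for the effects. Over all single-gene results and settings 1396 kept their side of the threshold, 15 passed it, 125 fell short and 1 reversed. Differences that were not called counted as kept even where their sign changed, as for Cd3e between fat and lymph node Tconv (-0.35 to 0.38). With 3 arrays per group and fat Treg values of Txk under the filter level, small or dim differences are not resolved.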
